A study of Mus musculus with 3 samples.

Results

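Blood vessels of the early face were followed here through 9 genes of vascular endothelium (*Pecam1*, *Cdh5*, *Esam*, *Cldn5*, *Emcn*, *Kdr*, *Flt1*, *Tek* and *Tie1*) and the ligand *Vegfa*. These 10 genes were chosen by name among the 55401 genes counted, and all 10 had a row of counts. The libraries were 3 samples of maxillary processes, the paired swellings that form the upper jaw, dissected from mouse embryos at E10.5. All came from Wnt1cre; Rosa26Dlx2/- embryos (OE), in which Cre under *Wnt1* control removes a stop sequence and a CAG promoter at *Rosa26* then drives *Dlx2* with a 3xFlag tag in neural crest cells. The labels call the samples independent RNA samples and do not say how many embryos each held, so p-values measure the spread between these samples, whatever its source. No library of another genotype was analysed here, and every comparison below is between OE libraries or between genes within them.

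Endothelial cells line the vessels and, in the head, come mainly from mesoderm, whereas the facial mesenchyme around them comes from the neural crest that carries the Cre driver. VEGF-A is secreted by the tissues that vessels grow into. It binds KDR, the receptor that carries most of its signal in endothelium, and FLT1, which binds VEGF-A tightly and signals weakly. TEK is the receptor of the angiopoietins and TIE1 its related partner without a ligand of its own. Cadherin 5, claudin 5, ESAM and PECAM1 sit at the contacts between endothelial cells, and endomucin coats the surface of capillaries and veins.

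Counts on genes were 36544554, 35351031 and 40057435 in replicates 1, 2 and 3. Levels are given as CPM, the counts scaled to library totals on genes after TMM normalization. The libraries stood apart in ways that the single group does not explain, and by their sex-linked genes replicate 1 held other embryo material than replicates 2 and 3. *Xist* was at 671 CPM in replicate 1 and under 1 CPM in the others, while 4 Y-linked genes summed to 0 counts in replicate 1 and to 146 and 109 CPM in replicates 2 and 3. The summed level of 9 neuron markers was 273, 24.3 and 35.9 CPM in the same order, and that of 7 pigment markers was 6.81, 38.4 and 163 CPM. Replicate 3 also differed by gene length. Its log2 ratio to the mean of replicates 1 and 2 had a median of 0.64 over genes with up to 2000 bp of exon and of -0.56 over genes above 8000 bp. *Dlx2* was at 235, 201 and 183 CPM. The count does not separate the *Rosa26* allele from the gene's own locus.

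All 10 genes were well counted, with 453 to 3129 reads per library, and none shares an exonic base with another annotated gene. The 9 endothelial genes summed to 362, 404 and 340 CPM in replicates 1, 2 and 3, or 369 ± 32.9 (mean ± SD, n = 3), a span of 1.19-fold from the lowest to the highest library. The single genes moved in opposite directions in replicate 3. *Cdh5*, *Kdr*, *Flt1* and *Tek* were lowest in replicate 3, and *Tie1*, *Esam*, *Emcn* and *Cldn5* were highest there. For *Tie1*, replicates 2 and 3 lay close together, at 60.5 and 62.5 CPM. *Pecam1* was close to level across the libraries. *Vegfa* changed little as well.

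**Figure D1:**
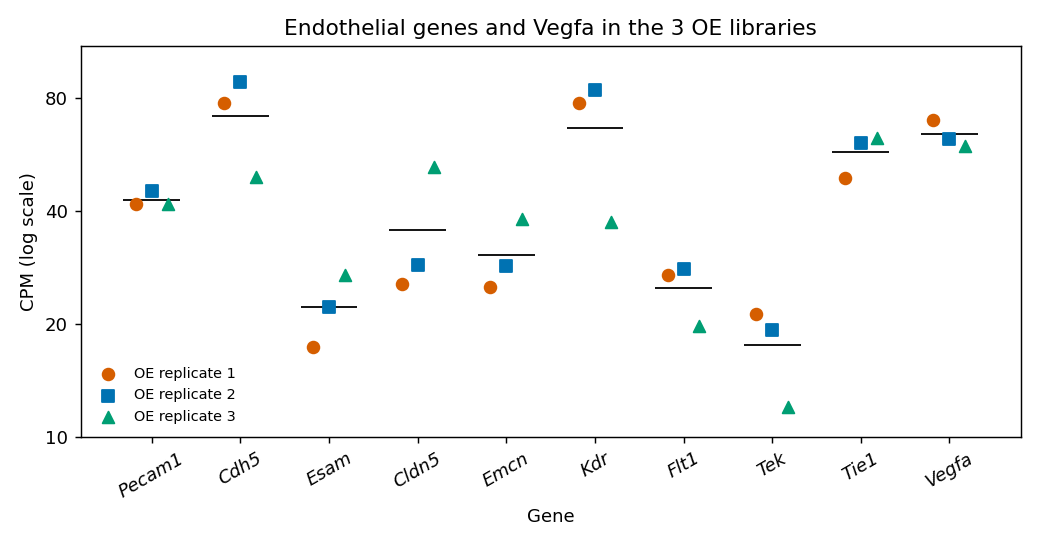
CPM of each gene (log axis) in OE replicates 1, 2 and 3, with a black line at the mean of the libraries. Replicate 3 lies below both other libraries for *Cdh5*, *Kdr*, *Flt1* and *Tek* and above both for *Tie1*, *Esam*, *Emcn* and *Cldn5*. For *Tie1*, replicates 2 and 3 lie close together.

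The stretch before the transcription start is shown for genes that were low together in replicate 3 (*Kdr*, *Flt1*, *Tek*), for genes that were high together there (*Emcn*, *Cldn5*) and for the ligand *Vegfa*. RefSeq on GRCm38.p6 held such a stretch for 7 of the 10 genes, and *Pecam1*, *Cdh5* and *Esam* had none. That of *Tie1* is left out because 212 of its bases lie inside the annotated gene. Each line gives the 250 bases before the start, 5′ to 3′ on the strand of the gene. The windows are chr5:75978456-75978705 (minus strand) for *Kdr*, chr5:147726012-147726261 (minus) for *Flt1*, chr4:94739039-94739288 (plus) for *Tek*, chr3:137340828-137341077 (plus) for *Emcn*, chr16:18776597-18776846 (plus) for *Cldn5* and chr17:46032378-46032627 (minus) for *Vegfa*. Capitals mark matches on either strand to any of the motifs searched.
Kdr: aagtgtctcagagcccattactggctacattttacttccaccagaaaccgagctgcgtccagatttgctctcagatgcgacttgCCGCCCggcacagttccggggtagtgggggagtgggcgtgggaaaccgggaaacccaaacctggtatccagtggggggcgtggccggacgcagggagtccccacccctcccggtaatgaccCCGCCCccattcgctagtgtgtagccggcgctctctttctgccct
Flt1: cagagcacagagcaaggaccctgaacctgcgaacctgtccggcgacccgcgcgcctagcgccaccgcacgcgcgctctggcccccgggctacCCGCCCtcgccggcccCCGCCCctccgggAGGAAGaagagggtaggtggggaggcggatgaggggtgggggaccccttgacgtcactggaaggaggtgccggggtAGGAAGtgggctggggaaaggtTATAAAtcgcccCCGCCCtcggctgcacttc
Tek: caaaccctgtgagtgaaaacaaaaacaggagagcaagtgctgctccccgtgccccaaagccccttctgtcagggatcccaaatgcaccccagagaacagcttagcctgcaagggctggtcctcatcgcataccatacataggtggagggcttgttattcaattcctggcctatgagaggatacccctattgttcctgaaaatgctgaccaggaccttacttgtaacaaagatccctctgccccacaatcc
Emcn: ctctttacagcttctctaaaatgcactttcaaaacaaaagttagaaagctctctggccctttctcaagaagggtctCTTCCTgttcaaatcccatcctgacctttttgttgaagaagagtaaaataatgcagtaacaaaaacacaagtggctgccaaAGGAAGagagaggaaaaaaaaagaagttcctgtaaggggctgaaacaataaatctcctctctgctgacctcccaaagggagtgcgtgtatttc
Cldn5: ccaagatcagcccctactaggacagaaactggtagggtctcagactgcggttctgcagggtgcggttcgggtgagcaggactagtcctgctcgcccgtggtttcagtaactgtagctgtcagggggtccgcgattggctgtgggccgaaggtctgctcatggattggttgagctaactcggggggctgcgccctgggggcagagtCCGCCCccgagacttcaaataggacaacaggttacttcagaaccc
Vegfa: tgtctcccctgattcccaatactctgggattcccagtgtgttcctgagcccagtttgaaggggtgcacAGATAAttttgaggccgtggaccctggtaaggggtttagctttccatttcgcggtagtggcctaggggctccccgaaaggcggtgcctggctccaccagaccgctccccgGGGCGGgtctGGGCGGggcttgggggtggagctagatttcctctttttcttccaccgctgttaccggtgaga

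The motif AGGAAG, a core bound by ETS factors such as those that act in endothelium, stood in 3 of the 7 windows, 2 times each before *Flt1* and *Emcn* and 1 time before *Tie1*, and in 29.5% of all 32851 windows of that length. The related ETS core CGGAAG stood before *Tie1* and in 13.6% of all. The GATA motif AGATAA stood before *Vegfa* and in 9.99% of all, and the GC box GGGCGG stood in 4 of the 7, before *Kdr*, *Flt1*, *Cldn5* and *Vegfa*, and in 32.7% of all. Among the 7, the TATA box TATAAA stood before *Flt1*, and it stood in 12.4% of all. The core of the homeodomain motif, to which the DLX family belongs, was searched as TAATTA, which was in none of the 7 windows and in 4.84% of all. The core of the hypoxia response element was searched as ACGTG, which was in none of the 7 and in 16.6% of all. No match overlapped another in these windows, and the *Tek* window held no match to any of these motifs. GC boxes and AGGAAG each stood both before genes that were low and before genes that were high in replicate 3 as measured. These groups shrank with the dependence on length and GC content removed, as described below. The log2 ratio in replicate 3 then went from -0.47 to -0.05 for *Flt1* and from 0.95 to 0.14 for *Cldn5*. GC content ran from 40.8% before *Emcn* to 70.4% before *Flt1*, with a median of 52.4% over all windows.

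*Vegfa* (ENSMUSG00000023951, chromosome 17 of GRCm38, 46016993 to 46032369, minus strand), the ligand, had 2699, 2216 and 2241 counts in replicates 1, 2 and 3. This was 69.9, 62.3 and 59.5 CPM, or 63.9 ± 5.41 (SD, n = 3). Replicate 1 was the highest library and replicates 2 and 3 lay close together. The ratio of the highest to the lowest library was 1.18, with an exact 95% interval of 1.11 to 1.24 that covers counting error only. For replicate 3 against replicate 2 the ratio was 0.955 and its interval, 0.901 to 1.01, included 1. The gene count does not separate the splice forms of *Vegfa* or the soluble form of *Flt1*.

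*Kdr* (ENSMUSG00000062960, chromosome 5, 75932827 to 75978458, minus strand) had 2994, 2995 and 1405 counts. Its level was 77.6, 84.1 and 37.3 CPM, so replicate 3 lay far under the others and the other libraries lay within 1.08-fold of each other. The ratio of highest to lowest library was 2.26 (exact 95% interval 2.12 to 2.41), the widest of the 10 genes. *Flt1* (ENSMUSG00000029648, chromosome 5, 147561604 to 147726011, minus strand) had 1038, 994 and 744 counts, at 26.9, 27.9 and 19.7 CPM. It was again lowest in replicate 3, and its ratio was 1.41 (1.28 to 1.56). Replicates 1 and 2 were not separable at this depth for *Flt1*, with a ratio of 1.04 and an interval from 0.951 to 1.13.

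*Tek* (ENSMUSG00000006386, chromosome 4, 94739289 to 94874976, plus strand) had 821, 687 and 453 counts, at 21.3, 19.3 and 12.03 CPM. Replicate 3 was the low library, and the ratio of highest to lowest was 1.77 (exact 95% interval 1.58 to 1.99). *Tie1* (ENSMUSG00000033191, chromosome 4, 118471191 to 118490061, minus strand) went the other way, with 1890, 2153 and 2353 counts at 49.0, 60.5 and 62.5 CPM. Replicate 1 was its low library, and replicates 2 and 3 differed by a ratio of 1.03 with an interval from 0.974 to 1.10. Per kilobase of exon, *Tie1* stood at 2.21, 3.00 and 4.98 times the level of its relative *Tek* in replicates 1, 2 and 3, and at 2.54, 3.28 and 3.92 times with the dependence on length and GC content removed.

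Among the junction genes, *Cdh5* (ENSMUSG00000031871, chromosome 8, 104101625 to 104144511, plus strand) had 2997, 3129 and 1849 counts, at 77.7, 87.9 and 49.1 CPM. Its mean was 71.5 ± 20.1 CPM (SD, n = 3), the highest of the 10 over the 3 libraries, but in replicate 3 it lay below *Tie1*, *Vegfa* and *Cldn5*. Replicate 3 was 1.79-fold under the highest library (exact 95% interval 1.69 to 1.90). *Cldn5* (ENSMUSG00000041378, chromosome 16, 18776847 to 18778262, plus strand) had 983, 1022 and 1967 counts, at 25.5, 28.7 and 52.2 CPM, which put replicate 3 at 2.05 times replicate 1 (1.90 to 2.22). *Esam* (ENSMUSG00000001946, chromosome 9, 37528078 to 37538319, plus strand) had 669, 790 and 1016 counts, at 17.3, 22.2 and 27.0 CPM, with a ratio of 1.56 (1.41 to 1.72). *Cldn5* and *Esam* were thus highest in the library where *Cdh5* was lowest, but with the dependence on length and GC content removed their log2 ratios in replicate 3 came down from 0.95 to 0.14 and from 0.46 to 0.17.

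*Pecam1* (ENSMUSG00000020717, chromosome 11, 106654217 to 106750628, minus strand) had 1609, 1607 and 1572 counts, at 41.7, 45.1 and 41.7 CPM. As measured, its spread was the smallest of the 10 genes, at 42.9 ± 1.99 CPM (SD, n = 3), and its ratio of highest to lowest library was 1.08 (exact 95% interval 1.01 to 1.16). Of all genes tested, 4.62% had a smaller spread between libraries, measured as the SD of log2 CPM. With the dependence on length and GC content removed, that SD went from 0.07 to 0.13 for *Pecam1*, above 0.08 for *Cldn5*, 0.10 for *Vegfa* and 0.11 for *Flt1*. *Emcn* (ENSMUSG00000054690, chromosome 3, 137341067 to 137432185, plus strand) had 965, 1014 and 1433 counts, at 25.0, 28.5 and 38.0 CPM. Its level was highest in replicate 3, with a ratio of 1.52 (1.40 to 1.65).

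Differences between libraries were tested against counting noise with a chi-square test of the 3 counts of each gene, adjusted over the 17115 genes whose mean count reached 10. All 10 genes passed that filter and all 10 were beyond counting noise (Benjamini-Hochberg adjusted p under 0.05), beside 81.5% of all genes tested. The test compares libraries of 1 group and not conditions. The smallest adjusted p of the 10 was 3.99e-157, for *Kdr*, by this chi-square test with Benjamini-Hochberg adjustment. *Pecam1* was near the threshold, with an adjusted p of 0.0431 by the chi-square test with Benjamini-Hochberg adjustment across genes. It was not called with DESeq2 size factors (adjusted p = 0.108 over all genes), with all genes that had a count (0.0639) or without replicate 2. *Tie1* and *Vegfa* were not called without replicate 1, nor *Flt1* and *Tek* without replicate 3, where the share of all genes called was 48.8%. By size, 6 of the 10 genes differed over 1.5-fold between the highest and lowest library, and so did 62.2% of all genes. The median SD of log2 CPM (prior count of 2) was 0.31 over the 10 genes and 0.39 over all genes tested, so the median of the 10 lay below that of all genes. The median spread of the 10 genes rested on replicate 3, without which it was 0.12, and that library also stood apart over all genes. Over all genes tested, Pearson's r of log2 CPM was 0.978 between replicates 1 and 2, 0.936 between 1 and 3 and 0.964 between 2 and 3.

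Of the 10 genes, 5 were lowest in replicate 3, against 45.6% of all genes, and 5 were lowest in replicate 1, against 39.3% of all. *Pecam1* is 1 of the latter, as it was at 41.69 CPM in replicate 1 and 41.73 in replicate 3. None was lowest in replicate 2, against 15.1% of all genes. Replicate 3 was highest for 4 of the 10 (43.2% of all genes), replicate 2 for 4 (17.2%) and replicate 1 for 2 (39.6%). The ratio of replicate 2 to replicate 1 ran from 0.890 for *Vegfa* to 1.28 for *Esam*, and its exact 95% interval left out 1 for 8 genes and held 1 for *Flt1* and *Tek*.

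The opposite moves in replicate 3 went in part with gene length. The log2 ratio of replicate 3 to the mean of replicates 1 and 2 ran from -1.11 for *Kdr* (9030 bp of exon, 4035 bp coding) to 0.95 for *Cldn5*, the shortest of them (654 bp coding). Across the 9 endothelial genes this ratio had Pearson's r of -0.67 with the log of exonic length and -0.83 with the log of coding length, as a description over genes that share their libraries. Spearman's rho was -0.45 and -0.75. Over all 17101 genes tested that have an annotated exonic length, r was -0.38 and rho -0.44, and over the 14116 with a coding length r was -0.35 and rho -0.36. By rank, the exonic length relation of the 9 genes was thus close to that over all genes. Genes of like length also differed. *Cdh5* and *Tek* (-0.75 each) lay below *Tie1* (0.20) at nearly the same exonic length, and *Emcn* (0.51) lay above the median of -0.23 for genes above 4000 and up to 8000 bp.

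The dependence on exonic length and GC content was then fitted as a smooth curve and taken out of each library. Beside the falls of *Cldn5* and *Esam* given above, the log2 ratio of *Flt1* in replicate 3 went from -0.47 to -0.05. *Cdh5* went from -0.75 to -0.79 and *Kdr* from -1.11 to -0.73. *Tek* went from -0.75 to -0.48. *Emcn* went from 0.51 to 1.05. *Tie1* and *Pecam1* changed sides, from 0.20 to -0.04 and from -0.06 to 0.17. *Tie1* was then no longer highest in replicate 3. Endothelial genes with a ratio beyond 0.5 in size numbered 5 of 9 before, beside 56.1% of all genes, and 3 of 9 after (*Cdh5*, *Kdr* and *Emcn*), beside 40.8% of all genes, so both counts lay near the background. With a trend on coding length in its place, chosen after the data were seen, the same 3 were at -0.63, -0.57 and 0.85, and *Tek* was at -0.12. The range of the 9 ratios went from 2.06 to 1.85 with the exonic length trend and to 1.48 with the coding length trend. The median SD of log2 CPM over the 10 genes went from 0.31 to 0.16 and over all genes tested from 0.39 to 0.29, but that of *Emcn* went up from 0.31 to 0.63, and those of *Pecam1* (0.07 to 0.13) and *Cdh5* (0.44 to 0.47) went up as well.

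Levels were compared between genes per kilobase of exon (CPM per kb). In order of mean log2 level the genes were *Cldn5* (25.0 ± 10.3 CPM per kb, SD, n = 3), *Cdh5* (17.0 ± 4.79), *Vegfa* (14.9 ± 1.26), *Tie1* (11.7 ± 1.48), *Esam* (7.73 ± 1.68), *Kdr* (7.35 ± 2.81), *Pecam1* (6.88 ± 0.319), *Emcn* (5.64 ± 1.25), *Tek* (3.72 ± 1.03) and *Flt1* (1.84 ± 0.330). Neighbours in this order were called separate where the difference had 1 sign in all 3 libraries and was larger than its SD. That held for 3 of 9 neighbouring pairs, for 5 without replicate 1, 2 without replicate 2, 7 without replicate 3 and 1 with the length of the longest transcript, so the separations given next hold for the 3 libraries together. *Vegfa* lay above *Tie1* by 0.36 ± 0.31 on the log2 scale, *Tie1* above *Esam* by 0.60 ± 0.15 and *Tek* above *Flt1* by 0.99 ± 0.19. *Cldn5* and *Cdh5* did not separate, since *Cdh5* was the higher by 0.04 in replicates 1 and 2 and *Cldn5* by 1.66 in replicate 3. From *Esam* to *Tek*, no gene separated from the next in the order with all 3 libraries. *Flt1* was at the bottom and *Tek* next to it in every library.

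**Figure D2:**
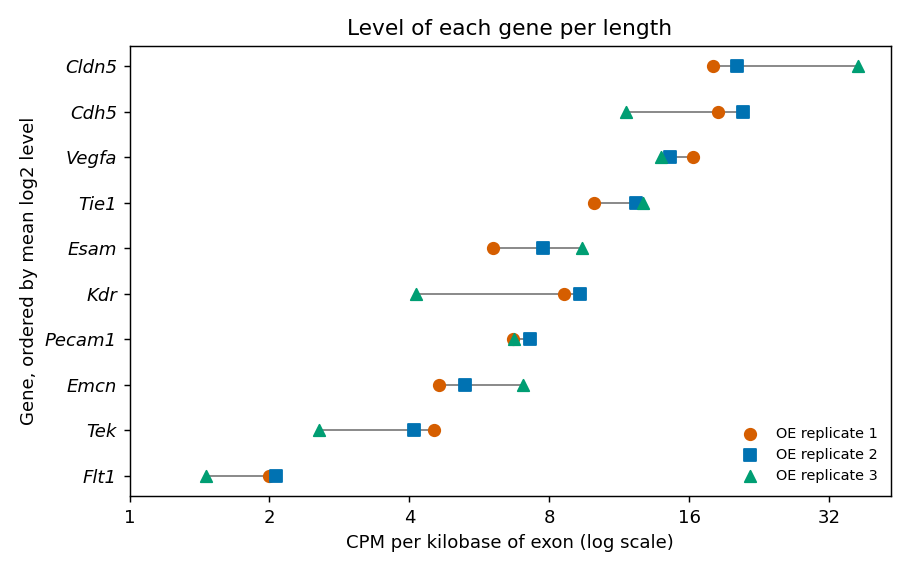
CPM per kilobase of exon (log axis) of each gene in OE replicates 1, 2 and 3, ordered by mean log2 level, with grey lines from the lowest to the highest library. *Cldn5* reaches 36.9 in replicate 3, and *Flt1* lies at or under 2.07 in every library.

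The order depended on which length was used. With coding length, *Vegfa* came first, *Emcn* moved from place 8 to 3 and *Tek* fell below *Flt1*. With the longest transcript, *Cldn5* was first and *Flt1* last as before. The exonic length of *Flt1* (13504 bp) joins all annotated transcripts and its longest single transcript has 6895 bp. Coding length is 783 bp of 5409 bp of exon for *Emcn*, 1176 of 4285 bp for *Vegfa* and 4091 bp for *Flt1*.

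Ligand and receptors were set side by side within each library on the same scale. *Vegfa* stood at 1.90, 1.56 and 3.36 times *Kdr* per kilobase in replicates 1, 2 and 3, and the high value in replicate 3 came with the low *Kdr* of that library. Against *Flt1*, *Vegfa* stood at 8.19, 7.03 and 9.49 times. With the length and GC trend removed this was 9.42, 7.27 and 7.95 times, so replicate 1 was highest in place of replicate 3. *Kdr* stood at 4.31, 4.51 and 2.82 times *Flt1*. On the log2 scale *Vegfa* exceeded the median endothelial gene by 1.28, 0.91 and 0.98. Of these ratios with no trend removed, that of *Vegfa* to *Kdr* moved most between libraries, with an SD of 0.58 in log2. That of *Vegfa* to *Flt1* had an SD of 0.22. With the length and GC trend removed, *Vegfa* stood at 2.14, 1.62 and 2.86 times *Kdr*, and *Kdr* at 4.39, 4.48 and 2.78 times *Flt1*.

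Further genes of the vascular system were taken from 6 lists (ligands, receptors, transcription factors, surface and junction genes, arterial genes, and venous and lymphatic genes). Of their 64 genes 61 had a mean count of at least 10, and 54 of the 61 (88.5%) were beyond counting noise, beside 81.5% of all genes. Replicate 3 was the lowest library for 31 of the 61 (50.8%), near the 45.6% of all genes, and the highest for 20, against 43.2% of all. Replicate 2 was highest for 21 of the 61 (34.4%), against 17.2% of all genes. The log2 ratio of replicate 3 had Pearson's r of -0.56 with the log of exonic length over the 61 genes, so the longer genes among them were also lower there.

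Among other ligands, *Vegfb* was the most abundant per kilobase (55.6 ± 26.0 CPM per kb, SD, n = 3). Its CPM was 59.4, 71.5 and 137 in replicates 1, 2 and 3, which followed *Cldn5* in being highest in replicate 3 and came down from a log2 ratio of 1.07 to 0.28 when the length and GC trend was removed. *Angpt1*, the ligand that activates TEK, was at 11.6, 7.81 and 4.49 CPM and was lowest in replicate 3 as *Tek* was. The reads of *Angpt1* could be shared with an antisense gene over 14.2% of its exonic bases. *Vegfc*, *Angpt2* and *Apln* were not beyond counting noise, and 4 of the 7 ligands tested were, beside 81.5% of all genes. *Apela* had 2, 0 and 0 counts, and a count of 0 allows up to 0.0843 CPM in replicate 2 and 0.0796 in replicate 3.

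All 11 genes of the receptor list were beyond counting noise, beside 81.5% of all genes. *Plxnd1*, a semaphorin receptor of vessels, was the most abundant per kilobase, at 193, 216 and 129 CPM, and *Ptprb*, the phosphatase that restrains TEK, was the least, at 6.40, 7.19 and 4.14. *Flt4*, the receptor of VEGF-C, was at 33.4, 38.2 and 15.8 CPM. Per kilobase, *Kdr* stood at 2.12, 2.01 and 2.15 times *Flt4*, and at 1.88, 1.88 and 2.58 times with the length and GC trend removed. The log2 ratio of *Flt4* in replicate 3 was -1.17 before and -1.18 after the trend was removed. The co-receptors *Nrp1* and *Nrp2*, named after their values were seen, went apart. *Nrp1* was at 14.0, 16.5 and 24.9 CPM and *Nrp2* at 70.4, 55.5 and 41.3.

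Of the endothelial transcription factors 12 of 14 were beyond counting noise, beside 81.5% of all genes, and 10 of 14 were lowest in replicate 3, beside 45.6% of all. *Sox18* had the highest mean per kilobase, at 26.2, 30.6 and 30.8 CPM. *Elk3*, named after its values were seen, was level with it (18.02 against 18.04 CPM per kb) and lay above it in replicate 1. *Etv2*, an early inducer of endothelium, was near the limit of detection with 14, 18 and 10 counts and was not beyond counting noise, nor was *Klf4*. *Lyl1*, shared by blood and endothelial cells, was at 5.16, 7.98 and 11.4 CPM and had the widest ratio of the list, 2.22. In the list of surface and junction genes, 13 of 14 were beyond counting noise (not *Gpr182*), beside 81.5% of all genes. *Plvap*, a protein of endothelial diaphragms, was at 76.2, 103 and 142 CPM, and *Egfl7*, a secreted endothelial protein, at 29.2, 44.1 and 83.2. *Egfl7* shares 9.41% of its exonic bases with other genes of its strand, among them the microRNA genes that it hosts. *Cldn1*, an epithelial relative of *Cldn5*, was the lowest per kilobase at 2.44, 1.12 and 1.30 CPM.

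Of the arterial genes 5 of 9 were highest in replicate 1, beside 39.6% of all genes. *Efnb2*, the arterial ephrin that mesenchyme also makes, had the highest mean per kilobase of the list, at 125, 82.6 and 50.7 CPM, but it led through replicate 1, and *Unc5b*, named after its values were seen, lay above it per kilobase in replicates 2 and 3. *Notch1*, which shares 9.76% of its exonic bases with genes of the other strand, was at 39.2, 30.1 and 10.8 CPM and had the widest ratio of the list between libraries, 3.63, among genes whose mean count reached 100. *Hey2* was at 6.01, 3.29 and 2.10 CPM. *Dll4* was the gene of the list that was not beyond counting noise, and the other 8 were, beside 81.5% of all genes. All 6 venous and lymphatic genes tested were beyond counting noise, beside 81.5% of all genes. *Ephb4* was at 203, 225 and 213 CPM, a span of 1.11-fold that is near that of *Pecam1*. *Pdpn* was at 10.6, 9.27 and 12.9 CPM, and *Lyve1*, a marker of lymphatic endothelium and of some macrophages, had 12, 3 and 3 counts.

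*Vegfa* is a target of the hypoxia-inducible factors, so 9 genes of the oxygen-sensing system and 12 of its known targets were read beside it. Of the regulators 8 of 9 were beyond counting noise (not *Vhl*), and of the targets 11 of 12 (not *Car9*), beside 81.5% of all genes. *Vegfa* was highest in replicate 1, as were 5 of the 9 regulators and 6 of the 12 targets, against 39.6% of all genes. *Egln2*, an oxygen-sensing hydroxylase, was the most abundant regulator per kilobase at 111, 146 and 202 CPM, and *Egln3*, an inducible one, was at 12.6, 9.78 and 5.89. *Hif3a*, the lowest regulator per kilobase, was at 12.9, 11.7 and 9.45 CPM. Among targets *Ldha* was at 1819, 1738 and 1964 CPM and *Pdk1* at 120, 81.9 and 41.6, while *Ndrg1*, the lowest per kilobase, was at 2.93, 1.80 and 1.54. The median log2 ratio of the targets was 0.22 in replicate 1, -0.08 in replicate 2 and -0.11 in replicate 3, beside 0.20, -0.05 and -0.15 for *Vegfa*. Single targets went both ways, from -1.25 for *Pdk1* to 1.04 for *Ankrd37* in replicate 3, the latter named after its values were seen.

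Markers of cells that lie in or along vessels were read for the same libraries. In bulk tissue, fewer cells of a type cannot be told apart from less RNA per cell. The 10 erythroid markers, all detected, summed to 2213, 4110 and 4956 CPM, with *Hbb-y* at 935, 1728 and 2156 CPM and *Epb42* at 6.27, 7.73 and 1.35. The globin genes resemble each other, so their reads may be split between copies. The 7 megakaryocyte and platelet markers summed to 13.7, 37.6 and 30.3 CPM. *Pf4* was at 2.72, 7.33 and 8.71 CPM, and *Gp1bb*, which shares 92.9% of its exonic bases with other genes, was at 0 counts in every library. The 10 macrophage markers summed to 39.95, 46.9 and 58.2 CPM, with *C1qb* at 4.43, 6.996 and 13.3 and *Ptprc* at 2.49, 1.69 and 0.903. Each of these 3 sums was lowest in replicate 1, where 39.3% of all genes were lowest. *Tie1*, *Esam*, *Emcn*, *Cldn5* and, by a small margin, *Pecam1* were lowest there as well. Single markers of these cells differed. The erythroid sum is mostly globin. Of the 10 erythroid markers 6 were lowest in replicate 1, where the list's median log2 ratio was -0.43. The other 4 were lowest in replicate 3, where it was -0.23. Of the 10 macrophage markers 5 were lowest in replicate 1, 1 in replicate 2 and 4 in replicate 3. All 6 megakaryocyte and platelet markers tested were lowest in replicate 1, against 39.3% of all genes. Some of these cells also carry PECAM1, ESAM or TIE1, and their part in the result was not tested.

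Mural cells, which wrap the vessel wall, were read through 10 markers, of which 7 reached a mean count of 10. All 7 were beyond counting noise, beside 81.5% of all genes, and the list summed to 325, 339 and 307 CPM. *Pdgfrb*, which mesenchyme also expresses, was at 132, 145 and 145 CPM. *Acta2* was at 8.99, 1.97 and 5.42 CPM. The 3 markers under the filter had 2, 5 and 1 counts (*Kcnj8*), 2, 3 and 2 (*Tagln*) and 9, 10 and 10 (*Myh11*, named after its values were seen). The pericyte markers *Abcc9*, *Cspg4* and *Rgs5* were detected, with 308, 293 and 113 counts, 99, 150 and 169 counts, and 76, 48 and 41 counts, and the muscle filament gene *Des* had 794, 789 and 2192. These 4 were likewise named after their values were seen. *Tagln* shares 67.9% of its exonic bases with genes of the other strand. For the tissue as a whole, all 8 facial mesenchyme markers were detected and summed to 1552, 1570 and 1694 CPM, and 8 epithelial markers summed to 456, 298 and 276 CPM. Single markers within these sums went both ways. Their log2 ratios in replicate 3 ran from -1.54 to 1.47 for mesenchyme and from -1.82 to 1.34 for epithelium. The 9 endothelial genes had median log2 ratios of -0.06, 0.13 and -0.06 in replicates 1, 2 and 3, beside 0.01, 0.03 and -0.03 over all genes tested. The first turned to 0.0599 with library totals without TMM and the last to 0.0819 with the coding length and GC trend removed. These medians lie over genes that went both ways, from -1.11 to 0.95 in replicate 3. The median over the neuron markers was 3.64, -2.81 and -1.08.

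**Figure D3:**
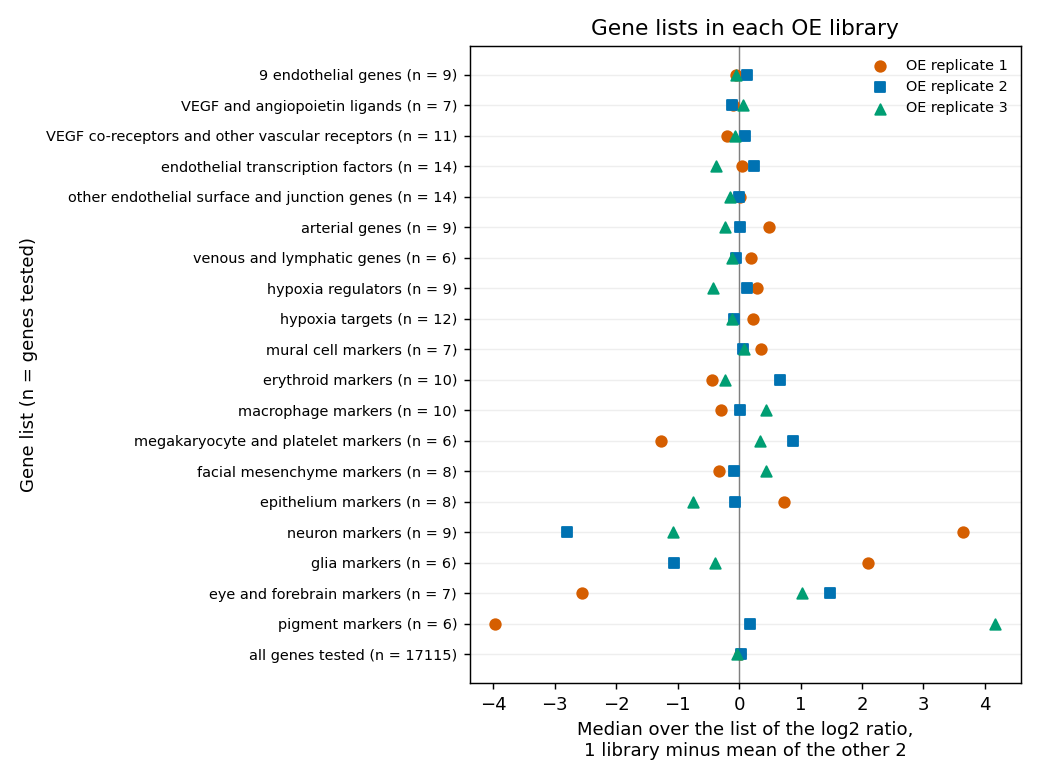
Median over each gene list of the log2 ratio of 1 OE library to the mean of the other 2, with the number of genes tested per list. The medians of the 9 endothelial genes, whose single ratios run from -1.11 to 0.95 in replicate 3, lie between -0.06 and 0.13, and those of neuron, glia, eye and forebrain, and pigment markers spread over more than 3 log2 units.

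The genes most like the endothelial set were sought by distance between their centred log2 CPM over the 3 libraries and the mean of the 9 genes, which was -0.04, 0.11 and -0.08 in replicates 1, 2 and 3. The 5 nearest of 11845 other genes, each with a mean count of 100 or more, were *Gypc*, *Otub2*, *Maea*, *Col18a1* and *Thoc7*, with distances from 0.0092 to 0.0124. *Pecam1* itself lay at 0.0534, *Vegfa* at 0.226 and *Cldn5*, the farthest, at 0.867. With 3 libraries the measure separates little, as 53.5% of those genes lay as near as the median endothelial gene. The mean of the 9 is also close to flat, since genes that went both ways offset each other in it. The 5 genes named are thus near that mean and not near most single endothelial genes.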

How the data were processed

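Bulk RNA-Seq of 3 OE samples was analysed. Per the labels, poly-A RNA was sequenced as 150 bp paired-end reads, and the submitters' processing notes name FastQC, STAR 2.7.3a and HTSeq 0.12.4 with mm10. The authors deposited raw counts per gene as whole numbers without normalization. The strand setting and annotation release are not given in the sources used here. Rows that name no gene held 14.2%, 15.7% and 16.4% of counted reads and were left out of library sizes.

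Identifiers were matched to GENCODE M21 (GRCm38), where 55141 of 55401 had a row. CPM used TMM factors of 1.06, 1.01 and 0.940 from edgeR 4.0.16. Log2 values used a prior count of 2. With 1 group, edgeR's quasi-likelihood test has no contrast, so counts of a gene were compared between libraries with a chi-square test, adjusted by Benjamini-Hochberg over genes whose mean count reached 10. Ratios have exact conditional 95% intervals, which cover counting error only. A trend on exonic length and GC content of the longest transcript was fitted with mgcv 1.9.3. DESeq2 1.42.0 gave other size factors, and R 4.3.3 was used. The steps were tested on simulated data. Replicate numbers follow accession order.

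The members, the 18 further gene lists and the rules were chosen with earlier results of these data known. Named beyond the members were, per list, the genes highest and lowest per kilobase, the widest ratio among genes whose mean count reached 100, genes at 3 counts or fewer in every library, and the 5 genes nearest in pattern. Genes named for not passing the test, and those marked so in the text, were chosen after their values were seen. For tissue lists outside vessels and blood, only sums, medians or ranges are given. The 0 level of a gene allows up to 3 counts.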

Additional observations from a re-analysis of the deposited data

How the results depend on the processing

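For 19 results 112 values were recomputed under other settings. The shift was under 1 SD between replicates, or at most 1.5 times for counts, in 97 of them and larger in 15. All 50 alternative levels of single genes, which are among the 97, stayed within 1 SD. Leaving out 1 of 3 libraries can hardly move a mean that far, so this tells little about the levels. The share of all genes beyond counting noise was 81.5%, 53.4% over all genes with at least 1 count, and from 48.8% to 77.7% when 1 replicate was left out, lowest without replicate 3. The number of the 10 genes beyond counting noise was 8 to 9 when 1 replicate was left out. Without replicate 1 *Tie1* and *Vegfa* were not called, without replicate 2 *Pecam1* was not, and without replicate 3 *Flt1* and *Tek* were not.

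The median SD of log2 CPM over the 10 genes was 0.31, 0.16 with the length and GC trend removed, 0.167 with the coding length and GC trend removed, and from 0.12 without replicate 3 to 0.44 without replicate 2. The median log2 ratio of the endothelial genes in replicate 1 was 0.0599 in place of -0.06 with library totals without TMM, and from -0.17 to -3.79e-07 when 1 replicate was left out. In replicate 3 it was -0.19 with library totals without TMM and 0.0819 with the coding length and GC trend removed, against -0.06. *Vegfa* exceeded the median endothelial gene by 1.06 in log2 over the libraries, by 1.49 per kilobase of coding length and by 0.59 per kilobase of the longest transcript. Of 9 neighbouring pairs in the order of levels 3 were separate, 5 with coding length, 1 with the longest transcript, and from 2 to 7 when 1 replicate was left out, 7 without replicate 3. The cause of these changes was not tested. No paired analysis was possible because all libraries belong to 1 group. With 3 libraries, no group was large enough for a search for single far-off samples.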
